A study of Mus musculus with 12 samples.

Results

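The 10 genes described here are ligands, receptors and 1 peptidase of the peptide systems that set vascular tone: Nppb, Npr1, Npr2, Npr3, Adm, Calcrl, Ramp1, Ednra, Agtr1a and Enpep. They are 10 of the 26305 gene identifiers counted in mouse embryonic fibroblasts, and all 10 were found in the table. They were chosen around Nppb, Ramp1, Adm and Enpep because these had moved with culture time in the same libraries, so differences between 240 h and 96 h are given as a description, without a test. The comparisons of the compound with its vehicle took no part in the choice.

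Natriuretic peptides are hormones best known from stretched heart muscle; Npr1 and Npr2 are membrane guanylyl cyclases that make cyclic GMP when the peptides bind, while Npr3 has no cyclase and takes the peptides up for degradation. Adrenomedullin, the product of Adm, and the calcitonin gene-related peptide (CGRP) act through 1 shared receptor, Calcrl, which needs a RAMP protein as partner: with Ramp1 it binds CGRP, and with Ramp2 or Ramp3 it binds adrenomedullin. Endothelin and angiotensin II are constrictor peptides that bind Ednra and Agtr1a, and Enpep (aminopeptidase A) removes an amino acid from angiotensin II.

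RNA was sequenced from primary fibroblasts of mid-gestation wild type C57BL/6 embryos, labelled male and grown with 10% serum in 3% oxygen. The groups were WM-2474 for 240 h, WM-2474 for 96 h, DMSO for 240 h and DMSO for 96 h, each with 3 libraries that the series calls biological replicates. WM-2474 was given at 10 µM and is named an inactive control in the labels, with DMSO as its vehicle. No active compound was analysed here, so that WM-2474 was set against DMSO alone.

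Library totals were between 7313007 and 26019167 counts, and a floor of 3 counts corresponded to 0.115 to 0.410 CPM (counts scaled to library size, here with TMM factors). All 9 fibroblast markers were detected in every library. Replicates 1 and 2 of DMSO at 240 h stood apart: their summed B-lineage markers reached 8.07 and 10.1 CPM, against 0.542 to 2.08 CPM in the other 10 libraries, and Xist reached 5.24 and 4.48 CPM, against at most 0.925 CPM. Values of DMSO at 240 h are therefore also given without them where named; that leaves replicate 3 alone in its group, assumed to vary like the other groups, which supply the spread. Of 7 heart muscle markers, Myh6, Myh7 and Nkx2-5 had at most 2 counts in any library, while Tnnt2 (up to 203 counts) and Tnni3 (up to 50 counts) were above 0 in all 12. Of 8 endothelial markers, Cldn5 was at 0 in all 12 libraries, while Kdr (up to 56 counts), Emcn (32), Tek (31) and Erg (11) were above 0 in all 12.

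The sequence upstream of the 4 genes around which the set was chosen is shown because these are the members whose levels differed most with time. RefSeq promoters of GRCm38.p6 matched 9 of the 10 members; Agtr1a had no entry. Capitals mark matches to any of 5 short motifs searched on both strands of the 250 bases before the start: the TATA box (TATAAA, in 12.4% of 32851 RefSeq promoters), the MCAT element of muscle promoters (CATTCC, 12.6%), the GATA factor motif (GATAA, 22.6%), the AP-1 motif (TGANTCA, 6.75%) and the core of the hypoxia response element (ACGTG, 16.6%).
Nppb upstream, chr4:147985650-147985785, plus strand: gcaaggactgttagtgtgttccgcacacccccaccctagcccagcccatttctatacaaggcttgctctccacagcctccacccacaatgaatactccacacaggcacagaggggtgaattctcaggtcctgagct
Nppb sites, chr4:147985795-147985821, plus strand: GGAATGcagctGATAAatcagaGATAA
Adm upstream, chr7:110627407-110627656, plus strand: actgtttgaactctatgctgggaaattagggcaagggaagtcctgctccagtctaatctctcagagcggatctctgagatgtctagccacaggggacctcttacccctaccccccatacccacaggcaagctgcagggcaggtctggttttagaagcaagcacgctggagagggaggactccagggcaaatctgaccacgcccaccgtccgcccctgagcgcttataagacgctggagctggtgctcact
Ramp1 upstream, chr1:91179572-91179821, plus strand: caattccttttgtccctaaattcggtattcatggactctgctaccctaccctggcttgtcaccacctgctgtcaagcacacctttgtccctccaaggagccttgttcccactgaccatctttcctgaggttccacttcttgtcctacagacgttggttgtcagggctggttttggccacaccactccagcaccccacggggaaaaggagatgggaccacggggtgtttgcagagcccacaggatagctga
Enpep upstream, chr3:129332750-129332999, minus strand: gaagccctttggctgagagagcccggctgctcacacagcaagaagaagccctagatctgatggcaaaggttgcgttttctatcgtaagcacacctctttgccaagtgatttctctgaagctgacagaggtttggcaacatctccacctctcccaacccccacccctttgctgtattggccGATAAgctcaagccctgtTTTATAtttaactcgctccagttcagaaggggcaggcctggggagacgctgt

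The short Nppb stretch lies downstream of the first annotated base of the gene and upstream of the start used in the promoter table. It holds the MCAT letters on the reverse strand at -105 to -100 and GATAA at -94 to -90 and at -83 to -79, counted from that start, and TATAAA follows at -31 to -26. In Enpep, GATAA stood at -70 to -66 and the TATA letters on the reverse strand at -52 to -47. None of the 5 motifs was found in its exact letters in the windows of Adm or Ramp1. The Adm window holds tataag near its end, which differs from TATAAA in the last letter only. A search for exact letters thus cannot show that a TATA box is absent. A match is a description of letters and not evidence of a bound factor, and these motifs do not overlap one another in the printed stretches.

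Levels in TPM, scaled to exon length and library size, placed the set over a wide range. With WM-2474 at 240 h the order was Npr2 (105 ± 6.33 TPM, SD, n = 3), Adm (64.3 ± 7.73), Ednra (23.8 ± 0.565), Nppb (18.8 ± 2.46), Npr3 (8.54 ± 0.524), Calcrl (7.07 ± 0.996), Ramp1 (6.15 ± 0.606), Agtr1a (2.29 ± 0.552), Enpep (0.414 ± 0.148) and Npr1 (0.388 ± 0.281). With WM-2474 at 96 h Adm stood first with 186 ± 17.2 TPM, before Npr2 with 102 ± 4.25 TPM, and Nppb held only 4.004 ± 1.93 TPM. The order in DMSO began the same way, with Npr2 at 103 ± 4.42 and Adm at 63.6 ± 6.82 TPM at 240 h, and with Adm at 186 ± 6.36 and Npr2 at 101 ± 4.28 TPM at 96 h.

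Not all neighbours in that order were separated by their libraries. The TPM ranges of Enpep and Npr1 overlapped at 240 h in both treatments, as did those of Calcrl and Ramp1. At 96 h in both treatments the ranges of Ednra and Npr3, of Nppb and Enpep, and of Enpep and Agtr1a overlapped. The ranges of Npr3 and Calcrl overlapped with WM-2474 at 240 h, and those of Ednra and Nppb with DMSO at 240 h. The other neighbouring pairs did not overlap.

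**Figure D1:**
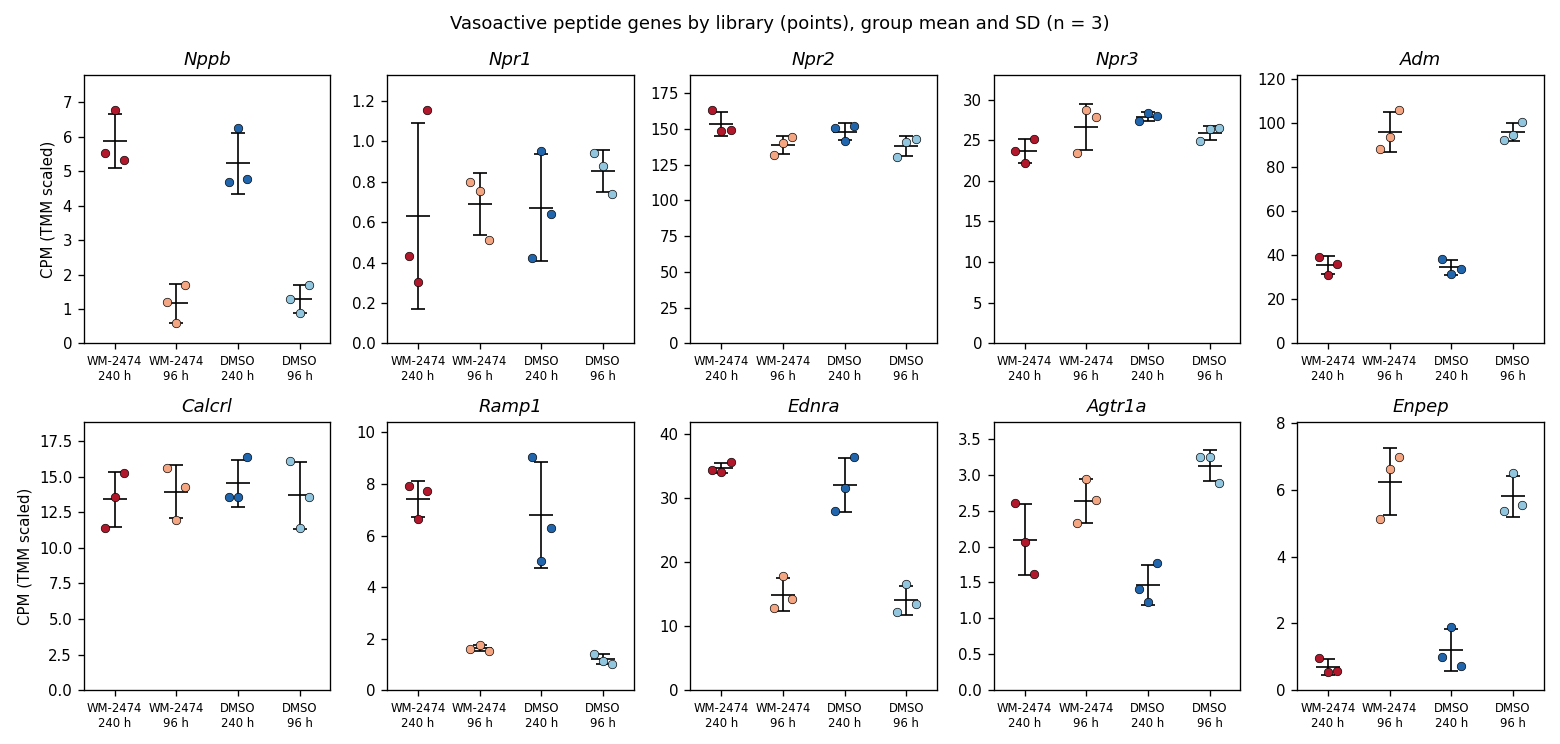
Level of each of the 10 genes in CPM (linear axes from 0, scaled per gene) in each library, with 3 points per group and lines at the group mean and SD; groups run WM-2474 240 h, WM-2474 96 h, DMSO 240 h, DMSO 96 h. Nppb, Ramp1 and Ednra sat higher at 240 h than at 96 h and Adm and Enpep lower in both treatments, while Npr2 and Calcrl stayed at similar levels.

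Nppb, which encodes brain natriuretic peptide (Entrez 18158, chr4:147985786-147987205), was higher at 240 h. With WM-2474 it had 5.53, 6.78 and 5.32 CPM at 240 h, against 1.20, 0.588 and 1.71 CPM at 96 h. DMSO libraries had 4.67, 6.25 and 4.77 CPM at 240 h, against 1.30, 0.879 and 1.70 CPM at 96 h. Every 240 h library lay above every 96 h library, the lowest of which held 7 counts. The log2 fold change, 240 h over 96 h, was 2.34 ± 0.29 with WM-2474 (SE; 95% interval 1.76 to 2.93), a 5.08-fold difference, and 1.96 ± 0.27 with DMSO (1.40 to 2.51), a 3.88-fold difference. The 7 heart muscle markers, of which 2 (Tnnt2 and Tnni3) passed the filter on low counts, summed to 7.24 to 10.2 CPM with WM-2474 at 240 h, against 4.79 to 6.40 CPM at 96 h, and to 7.22 to 11.1 CPM with DMSO at 240 h, against 5.27 to 6.08 CPM at 96 h. These sums were thus higher at 240 h without overlap in both treatments. Tnnt2 (1.93 to 8.90 CPM over all libraries) was highest in a WM-2474 library at 240 h and lowest in one at 96 h. Tnni3 (1.13 to 3.26 CPM) was highest in a DMSO library at 96 h and lowest in one at 240 h. A higher sum thus does not mean that both genes were higher. The part of these markers in the difference of Nppb was not tested. In bulk RNA, fewer cells that express a gene and less RNA per cell cannot be told apart, for this and all later genes.

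The natriuretic receptors differed less with time. Npr2 (Entrez 230103, chr4:43629015-43651437), the receptor of C-type natriuretic peptide, had 163, 149 and 149 CPM with WM-2474 at 240 h, against 132, 140 and 144 CPM at 96 h. With DMSO Npr2 had 151, 142 and 152 CPM at 240 h, against 130, 141 and 143 CPM at 96 h. Its log2 fold change was 0.15 ± 0.05 with WM-2474, where the groups did not overlap, and 0.11 ± 0.05 with DMSO, where they did.

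Npr1 (Entrez 18160, chr3:90450591-90465928), the receptor that brain natriuretic peptide binds, was close to the floor in every group. It had 4, 4 and 10 counts with WM-2474 at 240 h, against 12, 9 and 6 counts at 96 h, and 3, 7 and 16 counts with DMSO at 240 h, against 16, 10 and 10 counts at 96 h. The groups overlapped, and the intervals of its log2 fold change with time included 0 in both treatments. Npr3 (Entrez 18162, chr15:11839896-11907837), the clearance receptor, lay between 22.2 and 28.7 CPM in all 12 libraries. Its log2 fold change with time was -0.17 ± 0.09 with WM-2474 and 0.11 ± 0.08 with DMSO, where the groups did not overlap. Scaled to library totals the DMSO value was -0.0127, and that of Npr2 with DMSO was -0.0161, so that both changed sign.

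Of the summed TPM of the 3 natriuretic receptors, Npr2 made up 92.1% with WM-2474 at 240 h, 90.4% with WM-2474 at 96 h, 90.6% with DMSO at 240 h and 90.5% with DMSO at 96 h. Npr1 made up at most 0.507% on average in any group. Without knowledge of the strand setting of the counting, reads of opposite-strand genes that share exon bases with Npr1 (Gm16048, 11.7% of its exon bases), Npr2 (Gm12473, 5.70%) and Npr3 (Gm5144, 3.42%) cannot be told apart from their own.

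Adm (Entrez 11535, chr7:110627657-110629820) had the highest TPM of the set at 96 h and was lower at 240 h. With WM-2474 it had 39.2, 31.1 and 36.2 CPM at 240 h, against 88.4, 93.5 and 106 CPM at 96 h. DMSO libraries held 38.2, 31.5 and 33.9 CPM at 240 h, against 92.6, 94.8 and 100 CPM at 96 h. The groups did not overlap in either treatment, and the highest 240 h library held less than the lowest 96 h library. The log2 fold change was -1.45 ± 0.08 with WM-2474 and -1.48 ± 0.08 with DMSO, or 2.72-fold and 2.79-fold lower at 240 h.

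Calcrl (Entrez 54598, chr2:84330626-84425405), the receptor on which adrenomedullin and CGRP both depend, differed little. It had 11.4, 13.6 and 15.3 CPM with WM-2474 at 240 h, against 15.6, 11.9 and 14.3 CPM at 96 h. In DMSO the values were 13.6, 13.6 and 16.4 CPM at 240 h, against 16.1, 11.4 and 13.54 CPM at 96 h. The groups overlapped, with log2 fold changes of -0.06 ± 0.14 with WM-2474 and 0.11 ± 0.13 with DMSO.

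Ramp1 (Entrez 51801, chr1:91179822-91225196), the partner that turns Calcrl into the CGRP receptor, was higher at 240 h. With WM-2474 it had 7.92, 6.63 and 7.75 CPM at 240 h, against 1.60, 1.76 and 1.54 CPM at 96 h. DMSO libraries had 9.06, 5.03 and 6.30 CPM at 240 h, against 1.42, 1.14 and 1.04 CPM at 96 h. The lowest 240 h library held more than the highest 96 h library, and DMSO at 240 h was the most spread of the 4 groups. The log2 fold change was 2.17 ± 0.23 with WM-2474 and 2.44 ± 0.25 with DMSO, a 4.50-fold and a 5.44-fold difference.

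Set beside its 2 sister genes, Ramp1 made up a larger share of the summed RAMP TPM at 240 h. The share was 14.3% ± 1.29 with WM-2474 at 240 h, against 3.09% ± 0.569 at 96 h, and 13.4% ± 2.90 with DMSO at 240 h, against 2.10% ± 0.219 at 96 h (SD, n = 3). Ramp3 remained the most abundant RAMP, with 77.0% ± 0.752 with WM-2474 at 240 h, against 90.0% ± 1.54 at 96 h, and 78.5% ± 3.74 with DMSO at 240 h, against 90.5% ± 3.01 at 96 h. Thus the transcript of the CGRP-type partner took a larger part at 240 h, and that of an adrenomedullin-type partner stayed in the majority.

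**Figure D2:**
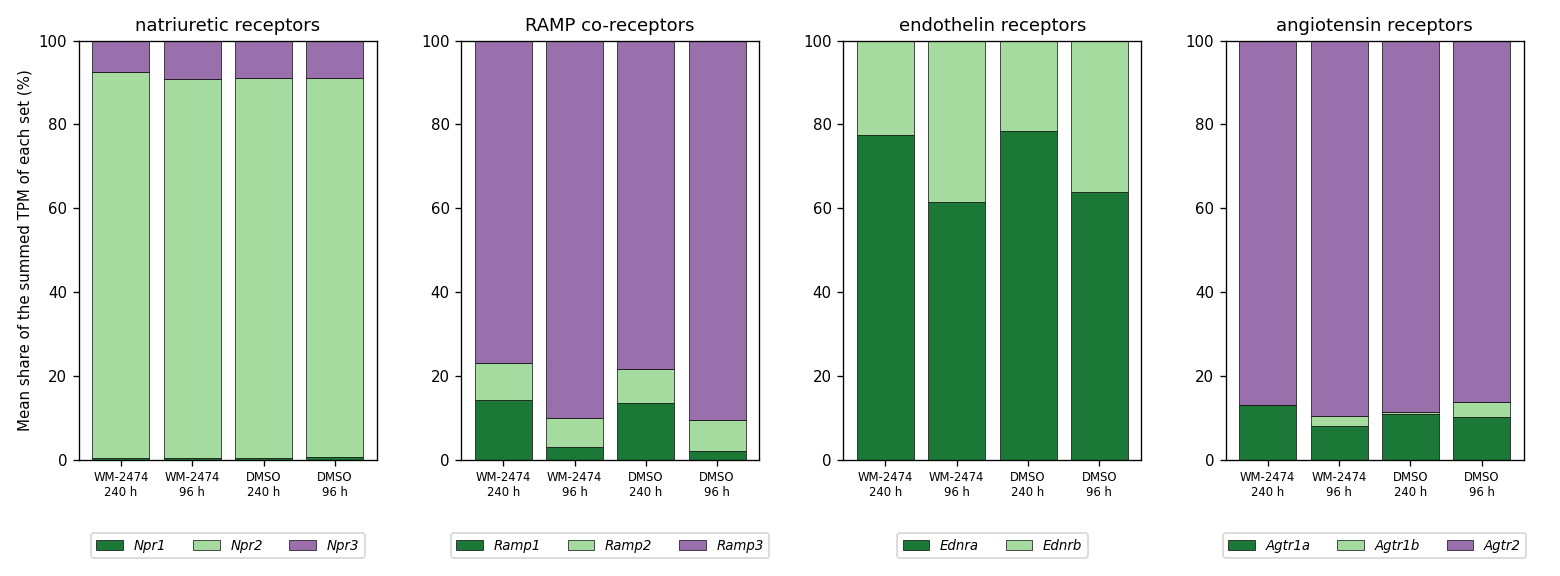
Mean share (%) of each receptor or co-receptor in the summed TPM of its set, 3 libraries per group, with groups in the order WM-2474 240 h, WM-2474 96 h, DMSO 240 h, DMSO 96 h. Ramp1 and Ednra took larger shares at 240 h in both treatments, and Npr2 took 90.4% to 92.1% in all 4 groups.

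Ednra (Entrez 13617, chr8:77663029-77724452), the endothelin receptor of smooth muscle, was higher at 240 h. With WM-2474 it had 34.4, 34.0 and 35.6 CPM at 240 h, against 12.8, 17.8 and 14.2 CPM at 96 h. In DMSO Ednra had 28.0, 31.5 and 36.5 CPM at 240 h, against 12.2, 16.5 and 13.47 CPM at 96 h. The groups did not overlap in either treatment. Ednra had a log2 fold change of 1.22 ± 0.12 with WM-2474 and 1.24 ± 0.12 with DMSO, a 2.33-fold and a 2.36-fold difference. Ednra made up 77.5% ± 4.61 of the summed TPM of the 2 endothelin receptors with WM-2474 at 240 h, against 61.4% ± 4.38 at 96 h. With DMSO it made up 78.4% ± 4.41 at 240 h, against 63.8% ± 2.48 at 96 h. Opposite-strand exons of 4933431K23Rik share 1.66% of the exon bases of Ednra.

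Agtr1a (Entrez 11607, chr13:30336356-30382867), the type 1 angiotensin receptor, had 24, 27 and 14 counts with WM-2474 at 240 h, or 2.60, 2.06 and 1.62 CPM, against 2.33, 2.94 and 2.65 CPM at 96 h. With DMSO it had 1.42, 1.22 and 1.77 CPM at 240 h, against 3.25, 3.25 and 2.89 CPM at 96 h. The groups overlapped with WM-2474 and did not with DMSO. Agtr1a had a log2 fold change of -0.32 ± 0.24 with WM-2474 (95% interval -0.81 to 0.17) and -0.99 ± 0.24 with DMSO (-1.48 to -0.50). Agtr1a shares 93 of its 2851 words of 31 bases with its copy Agtr1b, so that a small part of its reads is uncertain. Most of the summed TPM of Agtr1a, Agtr1b and Agtr2 came from Agtr2, an angiotensin receptor gene outside the set. Agtr2 made up 86.9% ± 4.18 with WM-2474 at 240 h, against 89.7% ± 1.45 at 96 h (SD, n = 3). With DMSO it made up 88.6% ± 1.67 at 240 h, against 86.4% ± 4.06 at 96 h. Agtr1a and Agtr1b shared the rest.

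Enpep (Entrez 13809, chr3:129269177-129332749), the aminopeptidase that acts on angiotensin II, had the largest difference of the set with WM-2474. With WM-2474 it had 0.976, 0.533 and 0.578 CPM at 240 h, against 5.12, 6.64 and 7.0003 CPM at 96 h. In DMSO Enpep had 0.991, 1.90 and 0.722 CPM at 240 h, against 5.37, 6.50 and 5.55 CPM at 96 h. The groups were well apart, and the 240 h libraries held 5 to 18 counts. Enpep had a log2 fold change of -3.17 ± 0.36 with WM-2474 and -2.49 ± 0.29 with DMSO, or 9.02-fold and 5.62-fold lower at 240 h. With DMSO the 2.44 ± 0.25 of Ramp1 was close to it in size. Without single libraries the DMSO values ran from -2.86 to -1.98 for Enpep and from 2.26 to 2.60 for Ramp1, so their order was not settled. The ratio of summed counts per TMM-scaled library total, 240 h over 96 h, was 0.110 with WM-2474 (0.0669 to 0.172) and 0.173 with DMSO (0.120 to 0.243), where the exact 95% intervals cover counting error only.

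**Figure D3:**
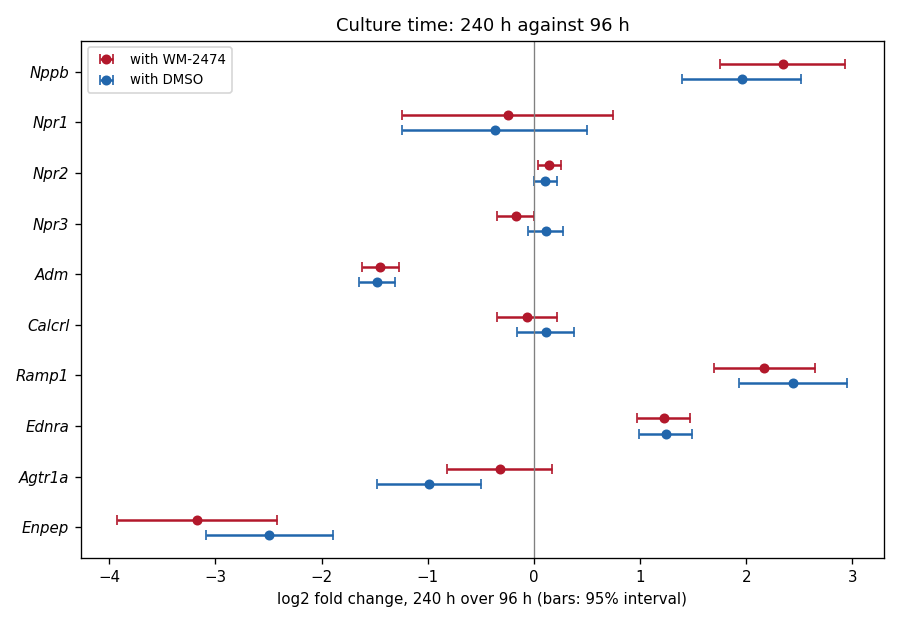
Log2 fold change of each of the 10 genes, 240 h over 96 h, with WM-2474 (red) and with DMSO (blue); points are fitted values and bars 95% intervals from the fit over 12 libraries. Nppb, Ramp1 and Ednra lay to the right of 0, and Adm and Enpep to the left, in both treatments; these differences chose the set and carry no test.

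In all, 6 of the 10 genes had 240 h libraries that did not overlap the 96 h libraries with WM-2474 (4 higher and 2 lower), where 42.4% of the 13499 genes tested did not overlap. With DMSO 7 of 10 did not overlap (4 higher and 3 lower), against 45.7% of genes tested. Since time chose the set, nothing is read from these counts. The median log2 fold change of the 10 genes was -0.12 with WM-2474 and 0.11 with DMSO, and the median over all genes tested was 0.00 and -0.01.

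Without DMSO replicates 1 and 2 at 240 h, the log2 fold changes with time in DMSO were 1.86 for Nppb, -1.50 for Adm, 2.37 for Ramp1, 1.39 for Ednra, -0.82 for Agtr1a and -2.98 for Enpep. All 6 kept their direction. In replicate 3, the DMSO library that remains at 240 h, Npr2 made up 90.8% of the natriuretic receptors, Ramp1 11.9% and Ramp3 81.5% of the RAMPs, and Ednra 80.4% of the endothelin receptors. Summed smooth muscle markers were 9381 to 9616 CPM with WM-2474 at 240 h, against 4684 to 5011 CPM at 96 h, and 8581 to 9839 CPM with DMSO at 240 h, against 4714 to 4925 CPM at 96 h. All 6 of those markers passed the filter on low counts, as did all 6 pericyte markers, which summed to 530 to 585 CPM with WM-2474 at 240 h, against 310 to 341 CPM at 96 h. Pericyte markers with DMSO summed to 528 to 553 CPM at 240 h, against 312 to 357 CPM at 96 h. Most of the pericyte sum was Cspg4, with 250 to 463 CPM over all libraries, before Notch3 (33.0 to 94.7) and Des (17.3 to 29.2). Rgs5, Kcnj8 and Abcc9 had at most 2.69, 1.92 and 2.99 CPM in any library.

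Summed fibroblast markers were also higher at 240 h, at 37467 to 39261 CPM with WM-2474 at 240 h, against 23301 to 28493 CPM at 96 h. With DMSO they summed to 34559 to 35444 CPM at 240 h, against 23650 to 28290 CPM at 96 h. The largest parts of the fibroblast sum were the collagen genes Col1a1 (10637 to 18806 CPM over all libraries) and Col1a2 (6076 to 10316). Not every fibroblast marker followed the sum. Pdgfra (186 to 301 CPM) was highest in a DMSO library at 96 h and lowest in a WM-2474 library at 240 h. Endothelial markers, of which 3 of 8 passed the filter, summed to 2.67 to 4.39 CPM with WM-2474 at 240 h, against 7.90 to 8.96 CPM at 96 h. With DMSO they summed to 4.29 to 5.95 CPM at 240 h, against 5.54 to 8.09 CPM at 96 h. The part of these marker levels in the differences with time was not tested.

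Other genes whose profile over the 12 libraries was closest to that of a member were ranked by the root mean square difference of centred log2 CPM among 12592 genes. For Nppb they were Ccdc88c (0.31) and Ptprz1 (0.31), for Ramp1 Sema5b (0.22) and Itga8 (0.25), for Adm Scd1 (0.11) and Acat2 (0.11), and for Enpep Itga3 (0.43) and Ppl (0.44). The profile of Adm thus had the closest neighbours and that of Enpep the most distant ones. In the 240 h libraries Adm held 232 to 846 counts and Enpep 5 to 18. The part of counting noise in this order was not tested. Scd1, a fatty acid desaturase, had a log2 fold change with time of -1.49 with WM-2474 and -1.48 with DMSO, next to the -1.45 and -1.48 of Adm.

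Between WM-2474 and DMSO, no member passed the threshold used, an adjusted p of 0.05 in edgeR's quasi-likelihood test with Benjamini-Hochberg adjustment over all genes. At 240 h 0 of 10 passed, where 0.0296% of all genes tested did, and the smallest adjusted p was 0.486, for Npr3. Without adjustment 1 of 10, Npr3, had a p under 0.05 at 240 h, where 8.14% of all genes had; DESeq2 and limma-voom likewise called 0 and gave Npr3 alone without adjustment. DESeq2 gave no adjusted p to 9 of the 10 at 240 h. At 96 h 0 of 10 passed with any of the 3 tools, and 0 had an unadjusted p under 0.05, where 0% and 2.10% of all genes had.

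Npr3 had 23.7, 22.2 and 25.1 CPM with WM-2474 at 240 h, against 27.3, 28.4 and 28.0 CPM with DMSO. All 3 WM-2474 libraries lay below all 3 DMSO libraries, and Npr3 was the only 1 of 10 whose groups did not overlap at 240 h, against 14.3% of all genes tested. Its log2 fold change, WM-2474 over DMSO, was -0.25 ± 0.09 (95% interval -0.42 to -0.07), with an unadjusted p of 0.0085 and an adjusted p of 0.486 in edgeR's test. Without DMSO replicates 1 and 2 it was again -0.25, with an adjusted p of 0.994 in edgeR's test and a single DMSO library left at 240 h.

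At 96 h Npr3 had 23.4, 28.7 and 27.8 CPM with WM-2474, against 24.9, 26.4 and 26.5 CPM with DMSO, and the groups overlapped. The difference of the WM-2474 effect between 240 h and 96 h was -0.28 ± 0.12 on the log2 scale (95% interval -0.53 to -0.04), with an unadjusted p of 0.0246 and an adjusted p of 0.977 in edgeR's test. In that contrast 0 of 10 genes passed, where 0% of all genes did, and Npr3 was the 1 gene of the set with an unadjusted p under 0.05 by edgeR and limma-voom, against 4.63% of all genes; DESeq2 gave 0. Averaged over both times, 0 of 10 passed, where 0.0148% of all genes did, and none had an unadjusted p under 0.05 with any of the 3 tools, where 5.65% of all genes had with edgeR.

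Ramp1 was the 1 gene of 10 whose groups did not overlap at 96 h, against 7.45% of all genes tested. It had 1.60, 1.76 and 1.54 CPM with WM-2474, against 1.42, 1.14 and 1.04 CPM with DMSO, or 18 to 24 counts against 13 to 24 counts. The log2 fold change was 0.42 ± 0.29 (95% interval -0.18 to 1.02), with an adjusted p of 1.00 in edgeR's test. At 240 h its groups overlapped, with a log2 fold change of 0.15 ± 0.17 (-0.21 to 0.50).

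The intervals of the compound's effect differed in width between the members. For Npr2 the log2 fold change was 0.05 at 240 h (95% interval -0.06 to 0.16) and 0.01 at 96 h (-0.10 to 0.12), and for Adm it was 0.03 at 240 h (-0.16 to 0.22) and 0.00 at 96 h (-0.15 to 0.15). Calcrl had -0.16 at 240 h (-0.44 to 0.12) and 0.02 at 96 h (-0.25 to 0.28), and Ednra had 0.08 at 240 h (-0.15 to 0.31) and 0.10 at 96 h (-0.17 to 0.37). The bound farthest from 0 among these 8 intervals was the -0.44 of Calcrl.

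Nppb, Npr1, Agtr1a and Enpep had lower counts and wider intervals, and the part of the counts in these widths was not tested. Nppb had 0.22 at 240 h (-0.21 to 0.64) and -0.17 at 96 h (-0.86 to 0.52), and Npr1 had -0.17 at 240 h (-1.19 to 0.84) and -0.30 at 96 h (-1.15 to 0.56). Agtr1a had 0.41 at 240 h (-0.13 to 0.96) and -0.26 at 96 h (-0.69 to 0.18), and its difference between the times was 0.67 ± 0.34 with an adjusted p of 0.977 in edgeR's test. Enpep had -0.58 at 240 h (-1.46 to 0.30) and 0.10 at 96 h (-0.28 to 0.48). Without DMSO replicates 1 and 2 the value at 240 h was -0.09 for Enpep and -0.07 for Ednra, whose sign turned. A p above the threshold does not show that the groups were equal, and these widths state what was not detectable at this depth.

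**Figure D4:**
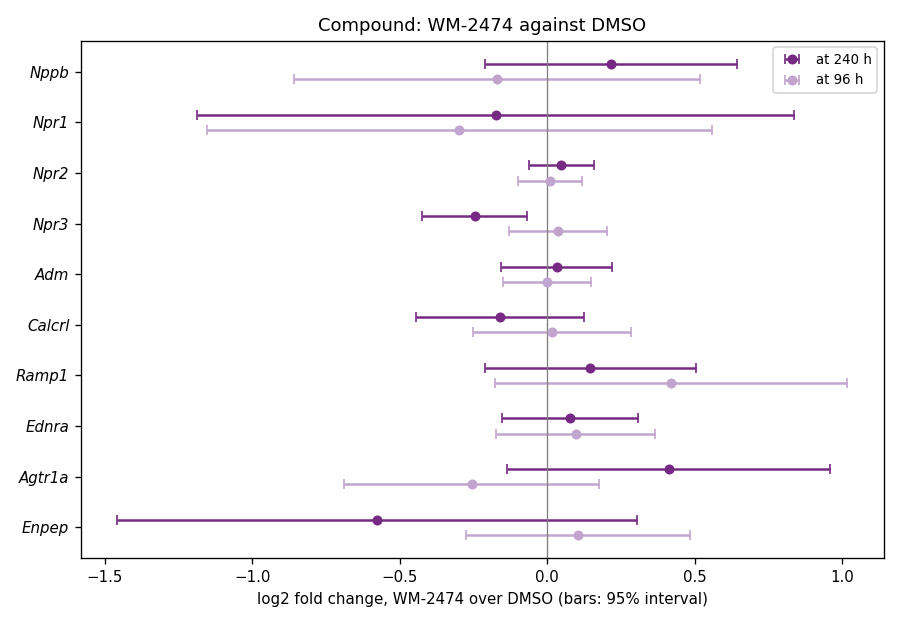
Log2 fold change of each of the 10 genes, WM-2474 over DMSO, at 240 h (dark) and at 96 h (light); points are fitted values and bars 95% intervals from edgeR's fit over 12 libraries. Only the interval of Npr3 at 240 h, -0.42 to -0.07, left out 0, and 0 of 10 genes passed an adjusted p of 0.05.

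Around the set, 65 further genes of the same systems were listed by name, of which 38 passed the filter on low counts. The 27 that did not included the ligands Nppc (34 counts over 12 libraries), Calca (9), Calcb (8) and Edn3 (0) and the renin gene Ren1 (6). With WM-2474, 8 of the 38 rose and 11 fell between the times (240 h against 96 h), or 50%, where 30.7% of all genes tested passed (15.9% higher and 14.8% lower). With DMSO, 7 rose and 15 fell, or 57.9%, where 34.8% of all genes passed (17.5% higher and 17.3% lower). Their median log2 fold change was -0.20 with WM-2474 and -0.11 with DMSO, against 0.00 and -0.01 over all genes. Without DMSO replicates 1 and 2 at 240 h, 5 rose and 10 fell with DMSO. When counts were scaled to library totals, which shifted the median of all genes to -0.14 and -0.13, 3 genes rose and 20 fell with each treatment.

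In the list drawn up for the natriuretic system, 5 of 9 tested genes rose (Furin, Gucy1a1, Gucy1b1, Prkg1 and Pde2a) and 1 fell (Mme) with WM-2474. With DMSO, 4 rose (Gucy1a1, Gucy1b1, Prkg1 and Pde2a) and 1 fell (Pde5a). Gucy1a1 and Gucy1b1 stand in that list as guanylyl cyclase genes, but their cyclase is not a natriuretic receptor, unlike Npr1 and Npr2. Gucy1a1, a subunit of the nitric oxide-responsive guanylyl cyclase, averaged 4.26 ± 0.929 CPM with WM-2474 at 240 h, against 1.29 ± 0.294 CPM at 96 h (SD, n = 3). With DMSO it averaged 3.29 ± 0.391 CPM at 240 h, against 1.04 ± 0.0842 CPM at 96 h. Its log2 fold change was 1.67 ± 0.25 with WM-2474 (adjusted p 6.02e-06 in edgeR's test) and 1.71 ± 0.27 with DMSO (8.62e-06). The groups did not overlap in either treatment.

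Gucy1b1, the other subunit of that cyclase, rose by 0.97 ± 0.19 with WM-2474 (log2; adjusted p 0.000344 in edgeR's test) and by 0.58 ± 0.18 with DMSO (0.013). The DMSO groups overlapped, and without DMSO replicate 3 at 240 h the value was 0.18 with an adjusted p of 0.56; the DMSO call was also lost without replicate 3 at 96 h (0.0542) and with DESeq2 (0.054). Pde2a, a phosphodiesterase that cyclic GMP stimulates, rose by 0.67 ± 0.22 with WM-2474 (0.0207) and by 0.96 ± 0.20 with DMSO (0.000401). With WM-2474 the call was lost without replicate 3 at 240 h (adjusted p 0.0687) without replicate 2 (0.0945) or 3 (0.0591) at 96 h, and when counts were scaled to library totals (0.0538). Nppa, the sister gene of Nppb, did not pass, with log2 fold changes of 1.38 ± 0.58 with WM-2474 (adjusted p 0.0621) and 0.90 ± 0.57 with DMSO (0.222).

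In the CGRP and adrenomedullin system, 0 of 6 tested genes rose and 2 fell with WM-2474 (Ackr3 and Pam), and 0 rose and 3 fell with DMSO (Ackr3, Pam and Ramp3). Ramp3, an adrenomedullin partner of Calcrl, averaged 16.2 CPM with WM-2474 at 240 h, against 19.4 CPM at 96 h, and did not pass (log2 fold change -0.27, adjusted p 0.0878 in edgeR's test). It did pass when scaled to library totals (-0.40, adjusted p 0.0103), with no filter on low counts (-0.27, adjusted p 0.0465) and without WM-2474 replicate 2 at 96 h (-0.35, adjusted p 0.0403). With DMSO it averaged 15.97 CPM at 240 h, against 20.9 CPM at 96 h, and passed (-0.37 ± 0.11, adjusted p 0.0134). That call was lost without DMSO replicates 1 and 2 at 240 h, which leaves a single library there (-0.27, adjusted p 0.177), without replicate 2 alone (0.0771) and without replicate 1 at 96 h (0.102). Ramp2 did not pass in either treatment, with log2 fold changes of 0.31 ± 0.37 with WM-2474 and -0.10 ± 0.36 with DMSO.

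Genes outside the rule for naming (among them Nppa, Furin, Prkg1, Mme, Pde5a and those in the lists of passing genes) were singled out after their values were seen. In this system they were Ackr3, a receptor that scavenges adrenomedullin, and Pam, the enzyme that amidates it. Ackr3 averaged 19.3 ± 0.295 CPM with WM-2474 at 240 h, against 48.0 ± 5.70 CPM at 96 h, and 17.2 ± 1.54 CPM with DMSO at 240 h, against 47.3 ± 7.17 CPM at 96 h. It fell by 1.31 with WM-2474 and by 1.47 with DMSO on the log2 scale. Pam fell by 0.34 with WM-2474 and by 0.39 with DMSO. Ackr3 and Pam passed in both treatments, and their groups did not overlap.

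In the endothelin system, 2 of 4 tested genes, Edn1 and Ece1, rose and 0 fell in each treatment. Edn1, which encodes the main endothelin, averaged 7.86 CPM with WM-2474 at 240 h, against 4.98 CPM at 96 h, and 7.82 CPM with DMSO at 240 h, against 5.58 CPM at 96 h. Its groups overlapped, with log2 fold changes of 0.69 ± 0.19 with WM-2474 (adjusted p 0.00835 in edgeR's test) and 0.54 ± 0.18 with DMSO (0.023). The call was lost with WM-2474 without replicate 2 at 240 h (0.47, adjusted p 0.116) and with DMSO without replicate 3 at 240 h (0.33, adjusted p 0.308). With DMSO it was also lost without replicate 2 (adjusted p 0.0802) or replicate 3 (adjusted p 0.0678) at 96 h, when scaled to library totals (adjusted p 0.0682) and with DESeq2 (adjusted p 0.056). Ednrb, the second receptor, did not pass, with 0.08 ± 0.20 with WM-2474 and 0.16 ± 0.20 with DMSO.

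In the renin-angiotensin system, 1 of 9 tested genes rose (Lnpep) and 2 fell (Agt and Agtr1b) with WM-2474, and 1 rose (Lnpep) and 6 fell (Agt, Ace, Agtr1b, Agtr2, Agtrap and Anpep) with DMSO. Agt, the angiotensin precursor, averaged 0.820 CPM with WM-2474 at 240 h, against 2.53 CPM at 96 h, and 0.626 CPM with DMSO at 240 h, against 2.85 CPM at 96 h. It fell by 1.68 ± 0.36 with WM-2474 (log2; adjusted p 0.000365 in edgeR's test) and by 2.44 ± 0.38 with DMSO (3.31e-06). Ace, which makes angiotensin II, had 16 counts with WM-2474 at 240 h, against 42 counts at 96 h, and did not pass (adjusted p 0.118), although it did without replicate 3 at 240 h (0.0345). With DMSO it had 12 counts at 240 h, against 58 counts at 96 h, and fell by 2.16 ± 0.57 (0.00139).

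Agtr1b, the near copy of Agtr1a, had 1, 0 and 0 counts with WM-2474 at 240 h, against 30 counts in all at 96 h. With DMSO it had 1, 0 and 4 counts at 240 h, against 42 counts in all at 96 h. It fell in both treatments, with adjusted p of 0.000439 with WM-2474 and 0.00032 with DMSO in edgeR's test. The ratio of summed counts per TMM-scaled library total, 240 h over 96 h, was 0.0416 (95% interval 0.00102 to 0.250) with WM-2474 and 0.127 (0.0391 to 0.319) with DMSO.

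Among kinin, vasopressin, oxytocin, apelin and urotensin genes, 4 of 5 tested fell with WM-2474 (Kng1, Kng2, Bdkrb2 and Apln) and 5 of 5 with DMSO (the same 4 and Avpr1a). Kng2, which encodes a kininogen, the precursor of bradykinin, averaged 0.470 ± 0.251 CPM with WM-2474 at 240 h, against 5.97 ± 1.45 CPM at 96 h, and 0.436 ± 0.136 CPM with DMSO at 240 h, against 5.83 ± 2.54 CPM at 96 h. It fell in both treatments, with log2 fold changes of -3.68 ± 0.57 with WM-2474 (adjusted p 2.12e-06 in edgeR's test) and -3.60 ± 0.52 with DMSO (1.46e-06). Kng1, a near copy, fell by 3.28 ± 0.66 with WM-2474 (6.4e-05) and by 3.88 ± 0.87 with DMSO (6.71e-05). The copies share 26.5% of the 31-base words of Kng1 and 30.6% of those of Kng2, so that the split of reads between them is uncertain.

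Of the vasoactive neuropeptide genes, 2 of 5 tested fell with WM-2474 (Vip and Tac1) and 0 of 5 passed with DMSO in edgeR's test, with 2 (Vip and Vipr1) at an unadjusted p under 0.05, where 43.5% of all genes were; the difference between the treatments was not tested. In both treatments 7 genes of the wider list rose, or 87.5% of those that rose with WM-2474 and 100% of those that rose with DMSO. Similarly 8 fell in both, or 72.7% of the WM-2474 list and 53.3% of the DMSO list. Between WM-2474 and DMSO 0 of the 38 passed at 240 h or at 96 h in edgeR's test, where 0.0296% and 0% of all genes did. Without adjustment 4 (Furin, Pde2a, Ece2 and Avpr1a) had a p under 0.05 in that test at 240 h, where 8.14% of all genes had. At 96 h 1 (Ece2) had, where 2.10% of all genes had.

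Without DMSO replicates 1 and 2 at 240 h, log2 fold changes with time in DMSO were 1.80 for Gucy1a1, 0.90 for Gucy1b1 and 0.67 for Pde2a. They were 0.29 for Prkg1 and 0.73 for Edn1. Ackr3 had -1.53 and Pam -0.41 in the CGRP and adrenomedullin system. In the renin-angiotensin system Agt had -2.95, Ace -1.75 and Agtr1b -2.58. Kng1 had -4.76, Kng2 -3.52, Apln -0.88, Avpr1a -0.75 and Vip -3.20. The calls of Pde5a, Ramp3, Ece1, Lnpep, Agtr2, Agtrap, Anpep and Bdkrb2 with DMSO were lost in that fit, and the call of Vip was gained.

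**Figure D5:**
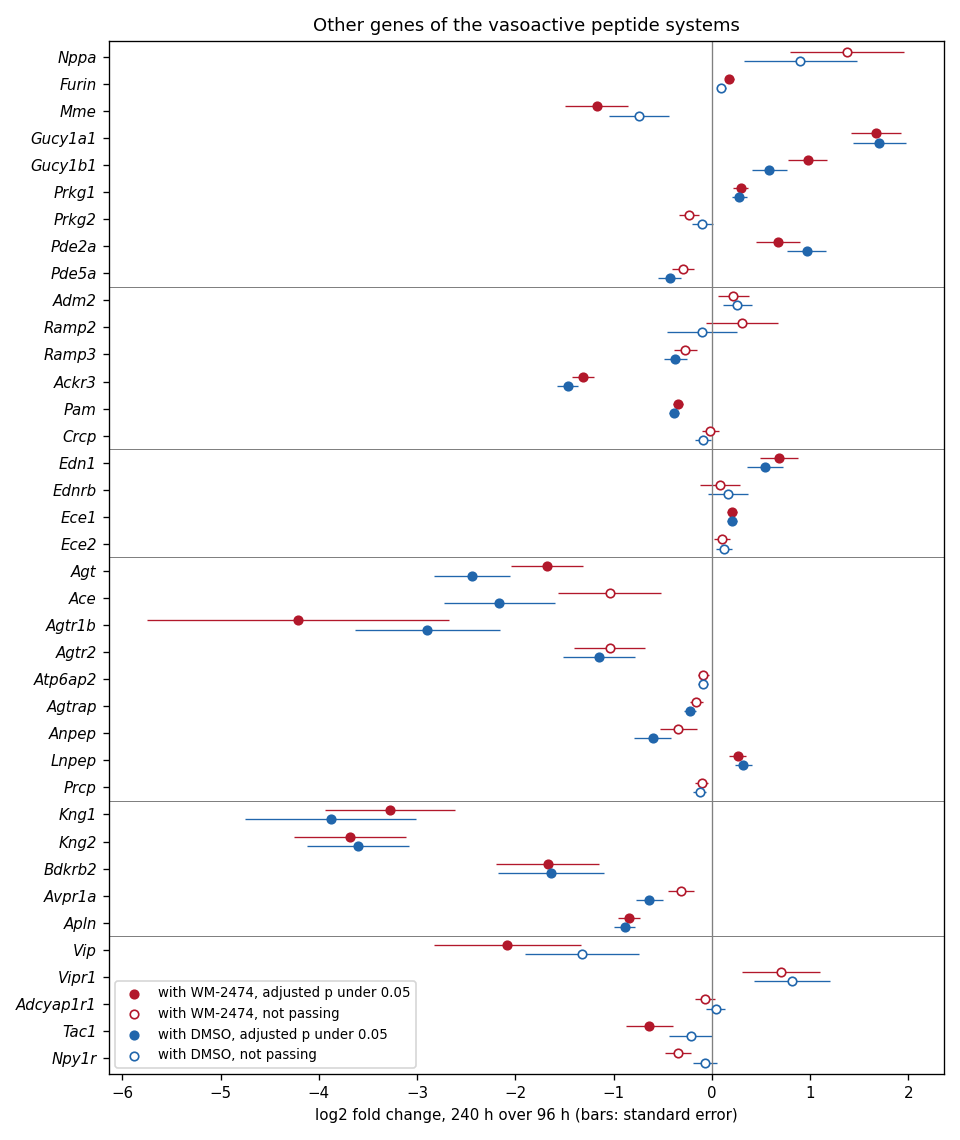
Log2 fold change, 240 h over 96 h, of the 38 tested genes of the same peptide systems that are no members, with WM-2474 and with DMSO, grouped by system; filled points passed an adjusted p of 0.05 in edgeR's test and open points did not. Kng1, Kng2 and Agtr1b lay farthest to the left and Gucy1a1 farthest to the right in both treatments.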

How the data were processed

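The deposited table holds counts per gene, whole numbers that the authors made with featureCounts on mm10, per the submitters' processing notes, with an exon length per gene. Libraries came from a stranded mRNA kit, per the labels' protocols. Which aligner, versions, annotation, strand setting and treatment of multiple mapping were used is not given in the sources used here. Of 27179 entries, 874 without a gene identifier (0.547 to 0.648% of counts) were left out, and 26305 identifiers were named with RefSeq of GRCm38.p6 (25275 matched, 96.1%); gene positions are from the same annotation, and exon overlaps and shared words from GENCODE on GRCm38. TPM was computed from counts and the deposited exon lengths, and 0 columns stayed unmatched. Replicates of a group differed by 2.02 to 4.99 times the chi-square that sampling alone gives, so no library was a copy.

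Counts were filtered with filterByExpr (13499 genes kept) and scaled by TMM, whose factors lay between 0.943 and 0.967 for 240 h libraries and between 1.04 and 1.05 for 96 h libraries. A single model of the 4 groups over the 12 libraries was fitted with edgeR 4.0.16, and its two-sided quasi-likelihood test was adjusted by Benjamini-Hochberg over all genes within a contrast. All 10 members passed the filter. An exact permutation of 3 against 3 libraries cannot give a p below 0.1, so that calls rest on the pooled fit. Alternatives used limma 3.58.1 and DESeq2 1.42.0 in R 4.3.3, and the scripts were checked on simulated counts. Intervals of count ratios and the floor cover counting error only. Python 3.11.15 drew the figures.

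The members and all lists were chosen with earlier results of these data known. Of the wider list, the text names per time contrast the 4 rises and 4 falls past the threshold of largest fold among genes that reached 1 CPM in some group, with Ramp2, Ramp3, Edn1, Ednrb, Agt and Ace in any case. Genes of like pattern are the 2 closest with an informative symbol. Replicate numbers are shared by the groups. The correlation of deviations between WM-2474 and DMSO libraries of the same number was 0.506, 0.371 and 0.273 at 96 h. At 240 h it was 0.203, 0.244 and 0.055. The main fit held no term for the replicate number at either time, so its intervals and tests are unpaired. The number entered as a block only in alternative fits. Leukocyte and red cell markers were summed as well. They came to 4.86 to 8.58 CPM over 5 leukocyte genes. Of 6 red cell genes listed, the 5 that had an entry summed to at most 1.22 CPM in any library.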

Additional observations from a re-analysis of the deposited data

How the results depend on the processing

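None of the 10 members passed for WM-2474 against DMSO under any of the 22 alternatives at 240 h or at 96 h, or the 20 for the average and the difference. Not every member could pass in each of them. Npr1 had a value in only 19 alternatives at 240 h and 21 at 96 h, and Enpep in 20 at 240 h. DESeq2 gave no adjusted p to 9 of the 10 at 240 h. With the replicate number as a block, 0 members passed at either time, and this changed no call of the members; over all genes the block gave 7 calls at 240 h (4 without it), 91 when only the libraries compared were fitted with the block, and 3 at 96 h in that fit (0 without it). At 240 h the calls over all genes also numbered 47 with no filter, 11 with DESeq2, 2 with limma-voom, 15 with only the libraries compared and 0 without DMSO replicates 1 and 2, and from 0 to 19 without single libraries. With DMSO, calls over all genes between 240 h and 96 h numbered 2863 without those 2 libraries (4694 with them). Scaled to library totals, the wider list had 3 rises (8 with TMM) and 20 falls (11) with WM-2474 and 3 rises (7) with DMSO, and Ednrb with WM-2474 had -0.0490. Without DMSO replicates 1 and 2, Ednra was at -0.0744 for WM-2474 against DMSO at 240 h. Adm at 96 h was 6.72e-05 with RLE factors, 0.000704 with DESeq2 and 0.013 with limma-voom. Without single libraries, log2 fold changes that crossed 0 for WM-2474 against DMSO ran from -0.87 to 0.24 for Npr1 and -0.0446 to 0.132 for Adm at 240 h, and at 96 h from -0.50 to 0.12 for Nppb, -0.0336 to 0.0445 for Npr2, -0.0239 to 0.129 for Npr3, -0.0771 to 0.0574 for Adm, -0.0889 to 0.16 for Calcrl and -0.0472 to 0.22 for Ednra. Between the times they ran from -0.14 to 0.34 for Ednrb with WM-2474 and from -0.37 to 0.12 for Ramp2 with DMSO. The cause of these changes was not tested. Low counts limit genes such as Npr1, Enpep, Ace and Agtr1b, with 18, 21, 16 and 1 counts in all with WM-2474 at 240 h.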
